A study of Mus musculus with 92 samples.

Results

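Total RNA of mouse embryonic stem cells was compared 12 h after the loss of GABPB1, a subunit of the transcription factor GABP, with that of the same line given solvent. The comparison holds 4 RNA-seq libraries of the 92 samples in the labels: 2 of cells with the genotype Gabpb1dTAG/dTAG given 500 nM dTAG-13 for 12 h, and 2 of the same line given DMSO for 12 h. All 56953 annotated genes were considered, and the 16396 with enough reads were tested. The cells were of the B6 line, grown with serum, LIF and the inhibitors PD0325901 and CHIR99021. The dTAG is a degron: dTAG-13, a small molecule, links the tagged protein to a ubiquitin ligase, and the proteasome then degrades it. The DMSO cells carry the tag as well, and the paralog GABPB2 is untagged in this line. Further lines measured in the same way, with 2 dTAG-13 and 2 DMSO libraries each, serve for comparison: one with the tag on GABPA (GabpadTAG/dTAG) and one with the tag on both partner subunits (Gabpb1/b2dTAG/dTAG). The labels call the libraries biological duplicates and do not give the number of clones per line.

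GABP pairs a DNA-binding subunit of the ETS family, GABPA, with a partner subunit, GABPB1 or GABPB2, which carries the activation domain and the ankyrin repeats that hold GABPA. GABPA recognises a GGAA core, usually within CCGGAAG, close to the start of many housekeeping genes, among them genes for mitochondrial proteins, ribosomal biogenesis and the cell cycle. The comparison asks which of these RNAs depend on the partner subunit within 12 h.

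The 4 libraries held 29.2 M and 32.1 M expected counts with dTAG-13 and 28.5 M and 31.6 M with DMSO. Replicates correlated with a Pearson r of 0.9979 on log2 CPM (counts scaled to library size by TMM) in both groups, and differed by more than counting error, the chi-square over its degrees of freedom being 3.56 with dTAG-13 and 3.14 with DMSO. The 8 embryonic stem cell markers summed to 11370 and 11709 TPM with dTAG-13 and to 10985 and 11055 TPM with DMSO, and none of the 8 passed the test described below. The 8 feeder fibroblast markers summed to 4.31 and 3.98 TPM with dTAG-13 and to 4.56 and 4.85 TPM with DMSO, with Postn, Dcn and Lum at 0 in all 4 libraries. In bulk RNA, fewer cells of a type and less RNA per cell cannot be told apart.

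Far more RNAs fell than rose after 12 h with dTAG-13. With edgeR's quasi-likelihood test and a Benjamini-Hochberg adjusted p under 0.05 over all genes tested, 896 genes fell (5.46%) and 210 rose (1.28%). The median log2 change was -0.48 among the fallen genes, with quartiles of -0.70 and -0.34, and 0.43 among the risen genes, against -0.00 over all genes tested. Both dTAG-13 libraries lay below both DMSO libraries in 30.7% of the genes tested and above them in 27% of them, so such a separation alone marks no gene. Changes over 2-fold were seen in 104 fallen genes (0.634%) and 18 risen genes (0.11%). In a simulation, 53.7% of 67 genes with a true log2 change of 0.585 and 89.1% of 64 with one of 2 were recovered. Moderate changes were thus often missed there. The simulation held far fewer changed genes than were called here, which makes the adjusted p threshold stricter. Its shares therefore do not measure the recovery in these data. The counts moved with the libraries in the fit. Without any 1 of the 4 libraries, between 310 and 377 genes fell and between 31 and 49 rose, whereas a fit of the 4 libraries alone called 1947 fallen and 1240 risen genes and kept 894 of the 896 and 210 of the 210.

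**Figure D1:**
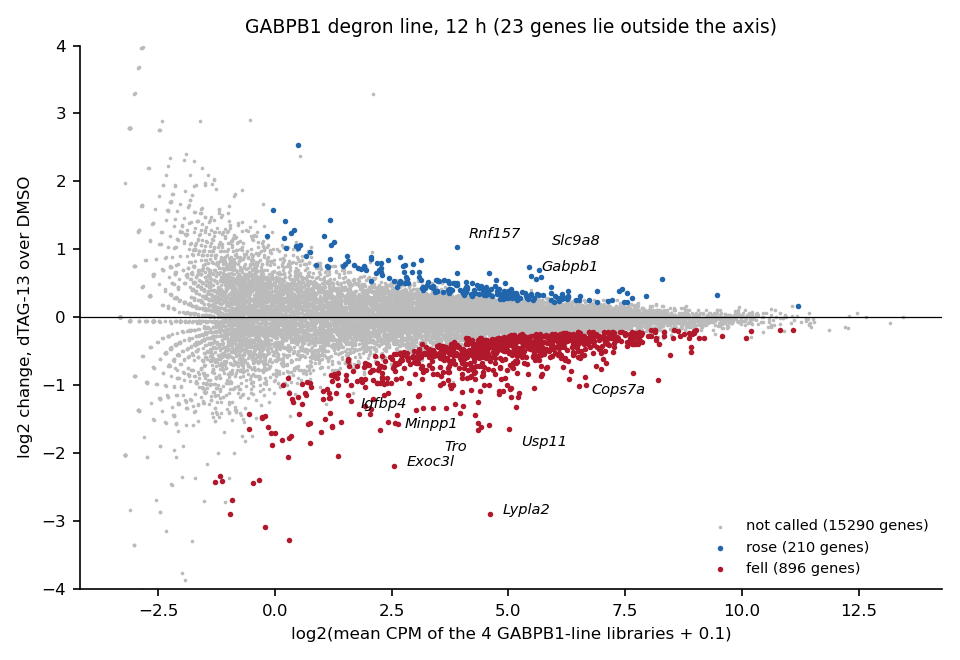
Each point is 1 of the 16396 genes tested, with the log2 of its mean CPM in the 4 GABPB1-line libraries (plus 0.1) on the x axis and its log2 change, dTAG-13 over DMSO, on the y axis, which ends at plus and minus 4. Red points are the 896 fallen genes and blue points the 210 risen genes, and 23 genes lie outside the plotted range.

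The GABP subunits themselves were not lowered at the RNA level. Because a degron acts on the protein, their RNA does not check the depletion. Gabpb1 (chromosome 2, 126469362 to 126518257 in mm39) had 54.1 and 54.4 CPM with dTAG-13 and 32.8 and 32 CPM with DMSO, and rose by 0.74 (SE 0.0997) on the log2 scale, with an edgeR adjusted p of 0.00016. All dTAG-13 values lay above all DMSO values. Gabpa had 191 and 181 CPM with dTAG-13 and 142 and 144 CPM with DMSO, and rose by 0.38 (SE 0.0678, edgeR adjusted p = 0.00188). It shares its locus with Atp5j on the other strand, which fell (log2 change -0.30), and the sources used here do not say whether reads were counted by strand. Gabpb2, the untagged paralog, had 104 and 99.9 CPM with dTAG-13 and 89.4 and 93.2 CPM with DMSO, a log2 difference of 0.16 (SE 0.0695) that did not pass (edgeR adjusted p = 0.217). Both dTAG-13 values for Gabpb2 were above both DMSO values.

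The genes described singly are the 25 largest falls and 12 largest rises among called genes whose log2 CPM averaged 3 or more, with no overlap between the groups and an established symbol. That average is over all 12 RNA-seq libraries of the 3 lines. In the GABPB1 line some of these genes were lower, such as Cpe, at 1.79 and 2.09 CPM with dTAG-13 and 1.19 and 0.912 CPM with DMSO. Larger fitted falls occurred at low levels, such as Lyrm2, picked after its values were seen, at 0.233 CPM in the first dTAG-13 library and 2.16 CPM in the first DMSO library (log2 change -3.28). The largest fall by this rule was that of Lypla2, which encodes an acyl-protein thioesterase that removes palmitate from proteins. Lypla2 had 5.38 and 6.11 CPM with dTAG-13 and 45.1 and 40.5 CPM with DMSO, a log2 change of -2.89 (SE 0.131, edgeR adjusted p = 2.35e-09) or 7.43-fold. Both dTAG-13 libraries were far below both DMSO libraries. Exoc3l, a paralog of the exocyst subunit Exoc3, had 2.13 and 2.03 CPM with dTAG-13 and 9.49 and 9.43 CPM with DMSO (log2 change -2.19, SE 0.155, edgeR adjusted p = 2.44e-07). Exoc3 itself, a core subunit of the complex that tethers secretory vesicles, fell less, with 27.4 and 28.9 CPM with dTAG-13 and 44.9 and 44.2 CPM with DMSO (log2 change -0.66, SE 0.0841). Of the 11 members tested on the list of the exocyst and its paralogs these 2 fell, and the list's median was 0.01.

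Rabep2 and Rinl, also among the largest falls, act with the small GTPase Rab5 in endocytosis. Rabep2, a rabaptin that binds Rab5, had 9.81 and 11.1 CPM with dTAG-13 and 31.7 and 32.2 CPM with DMSO (log2 change -1.61, SE 0.0982). Rinl, a member of the RIN family of Rab5 activators, had 11.9 and 12.1 CPM with dTAG-13 and 35.6 and 36.1 CPM with DMSO (log2 change -1.58, SE 0.0852). Appl2, an adaptor on Rab5-positive endosomes, had 9.97 and 8.67 CPM with dTAG-13 and 17.9 and 19.4 CPM with DMSO (log2 change -1.0, SE 0.139). Rabep2, Rinl and Appl2 were the 3 members that fell among 19 tested on the Rab5 and early endosome list (15.8%, against 5.46% of all genes). The other 16 were not called, and the list's median was 0.04. The gene lists were chosen with earlier results of these data known, so this share and those of the other lists are descriptions and no test.

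Other large falls were those of Usp11, Psmb10, Exosc3, Minpp1, Mogs and Etv3. Usp11, a deubiquitinase encoded on the X chromosome, had 16.7 and 14.4 CPM with dTAG-13 and 48.0 and 49.7 CPM with DMSO (log2 change -1.65, SE 0.0822). Psmb10, a catalytic subunit of the immunoproteasome, had 3.02 and 2.93 CPM with dTAG-13 and 9.60 and 7.86 CPM with DMSO (log2 change -1.55, SE 0.151). Exosc3, a subunit of the cap of the RNA exosome, had 11.7 and 12.2 CPM with dTAG-13 and 28.4 and 28.7 CPM with DMSO (log2 change -1.25, SE 0.0858), and overlaps Dcaf10 on the other strand. The groups did not overlap in any of these genes, which the naming rule required. Minpp1, a phosphatase of higher inositol phosphates, had 11 and 10.0 CPM with dTAG-13 and 28.1 and 29.0 CPM with DMSO (log2 change -1.44, SE 0.1). Mogs, the first glucosidase of N-glycan trimming in the endoplasmic reticulum, had 20.5 and 20.2 CPM with dTAG-13 and 50.3 and 51.4 CPM with DMSO (log2 change -1.32, SE 0.102). Etv3, an ETS-family repressor, had 10.5 and 8.01 CPM with dTAG-13 and 24.6 and 21.3 CPM with DMSO (log2 change -1.31, SE 0.122). On the ETS family list, Etv6 was the other of the 2 members that fell among 16 tested (log2 change -0.24, SE 0.0638). Its call was lost without each of the 4 libraries in turn, with adjusted p-values of up to 0.385 without the second DMSO library.

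Pairs of neighbouring genes on opposite strands fell together in 2 places. Trmt112, an activator of several tRNA and rRNA methyltransferases, had 19.6 and 21.3 CPM with dTAG-13 and 46.2 and 46.4 CPM with DMSO (log2 change -1.18, SE 0.0971). Its neighbour Prdx5, a peroxiredoxin, had 17.4 and 20.3 CPM with dTAG-13 and 40.5 and 40.1 CPM with DMSO (log2 change -1.09, SE 0.112). Romo1, a small protein of the inner mitochondrial membrane, had 4.69 and 5.47 CPM with dTAG-13 and 12.2 and 10.5 CPM with DMSO (log2 change -1.16, SE 0.179), and its partner Nfs1, the cysteine desulfurase of iron-sulfur cluster assembly, had 13.2 and 13.3 CPM with dTAG-13 and 29.1 and 27.4 CPM with DMSO (log2 change -1.09, SE 0.0973). The intervals of each pair overlap, so reads of the partners are uncertain where strand was not used. The rest of the 25 largest falls were Tro, Tmem184c, Ccdc137, Klk8, Pdf, Igfbp4, Galk2, Prkab1, Zfp865, Lefty1 and Surf2, with log2 changes between -1.66 for Tro and -1.10 for Surf2. All 25 were called in every alternative fit that was run, including those without 1 of the 4 libraries.

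**Figure D2:**
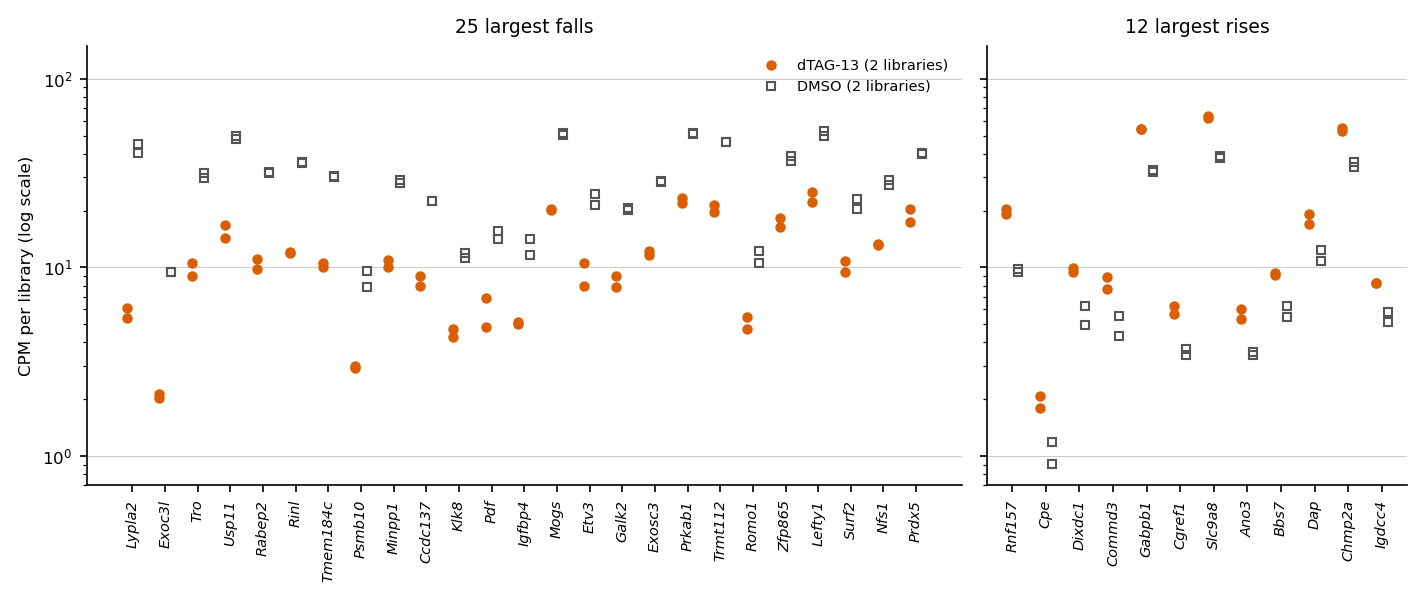
CPM on a log scale in each library of the GABPB1 line for the 25 largest falls (left) and the 12 largest rises (right), with dTAG-13 as filled circles left of DMSO as open squares. In every gene the 2 dTAG-13 libraries lie on one side of the 2 DMSO libraries, which the naming rule required. The gap is widest for Lypla2, at 5.38 and 6.11 CPM with dTAG-13 and 45.1 and 40.5 CPM with DMSO.

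The promoters of the fallen genes held the ETS motif more often than those of other genes. The motif CCGGAAG was searched on both strands, overlapping matches counted, in RefSeq promoters of 300 bases, of which 250 lie before and 50 after the start (build GRCm38.p6), which 11565 tested genes have. At least 1 match was present in 336 of 704 fallen genes (47.7%, exact 95% binomial interval 44.0 to 51.5), in 21 of 165 risen genes (12.7%, 8.05 to 18.8) and in 2177 of all 11565 genes (18.8%). At least 2 matches were present in 108 fallen genes (15.3%), in 0 of 165 risen genes, which allows a share of up to 2.21%, and in 3.52% of all genes. Among the 74 fallen genes with a promoter that fell over 2-fold, 37.8% held a match, with an interval of 26.8 to 49.9. These intervals cover counting error only.

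Stretches of 80 bases show the match in the 6 genes with the largest falls that hold one, 5′ to 3′ on the strand of the gene, with the motif or its reverse complement in capitals. They lie in GRCm38.p6 at chr4:135972627-135972706 (minus strand) for Lypla2, chrX:20703861-20703940 (plus) for Usp11, chr8:77610604-77610683 (minus) for Tmem184c, chr8:107048634-107048713 (minus) for Pdf, chr6:83115412-83115491 (plus) for Mogs and chr2:125859048-125859127 (plus) for Galk2.
Lypla2: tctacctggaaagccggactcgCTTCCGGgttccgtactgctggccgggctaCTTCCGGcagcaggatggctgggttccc
Usp11: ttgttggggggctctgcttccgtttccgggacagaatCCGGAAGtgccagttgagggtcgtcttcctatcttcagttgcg
Tmem184c: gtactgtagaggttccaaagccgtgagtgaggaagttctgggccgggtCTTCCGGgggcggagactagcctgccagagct
Pdf: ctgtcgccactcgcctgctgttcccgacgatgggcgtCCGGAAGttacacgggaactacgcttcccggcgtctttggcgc
Mogs: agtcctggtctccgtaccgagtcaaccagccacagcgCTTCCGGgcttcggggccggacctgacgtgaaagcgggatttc
Galk2: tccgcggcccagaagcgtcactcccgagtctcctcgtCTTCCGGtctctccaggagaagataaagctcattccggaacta
The matches of Lypla2 are centred 87 and 57 bases before the start, those of Usp11, Pdf, Mogs and Galk2 8, 59, 54 and 21 bases before it, and that of Tmem184c 21 bases after it. Pdf lies within the intervals of Cog8 on its own strand and Vps4a on the other.

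Large falls also occurred in genes with no match in this window. Exoc3l, Tro, Zfp865 and Lefty1 were not searched. Of the genes searched, Rabep2 and Rinl are the 2 with the largest falls and no match, and the stretches from 60 bases before to 20 after their starts are shown with every GGAAG, on either strand, in capitals (GRCm38.p6 chr7:126428707-126428786 and chr7:28788909-28788988, both plus strand).
Rabep2: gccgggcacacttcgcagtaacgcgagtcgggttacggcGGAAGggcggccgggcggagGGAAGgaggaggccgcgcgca
Rinl: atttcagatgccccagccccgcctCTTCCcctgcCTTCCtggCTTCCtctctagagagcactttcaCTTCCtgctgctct
The shorter GGAAG, which every CCGGAAG contains, was present in 92.5% of fallen, 71.5% of risen and 78.4% of all genes, and the longer CCGGAAGT in 26.8%, 4.85% and 8.44% of the same groups.

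The response deepened with the number of matches. Of 9388 genes with no match 3.92% fell, of 1770 with 1 match 12.9%, of 349 with 2 matches 24.6% and of 58 with 3 or more 37.9%. The median log2 change in the GABPB1 line was 0.01, -0.07, -0.16 and -0.28 over these classes, and no gene with 2 or more matches rose. In the GABPA line the medians were 0.12, -0.23, -0.69 and -1.01, and in the GABPB1/GABPB2 line 0.04, -0.10, -0.25 and -0.46. The median CpG content was 7.00 per 100 bases in fallen genes, 7.67 in risen genes and 7.00 in all genes. Within genes of low, middle and high CpG content (3855 genes each) a match was present in 28.9%, 56.3% and 53.7% of fallen genes and in 11.7%, 23.6% and 21.1% of all genes. Genes with more matches were also more strongly expressed, with a median log2 CPM of 4.10 for no match and 5.17 for 2, and the part of expression level in the count of calls was not tested. In genes with a single promoter window, 81.5% of 363 matches of fallen genes lay between 75 bases before and 25 after the start, against 64.5% of 2039 matches of all genes.

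**Figure D3:**
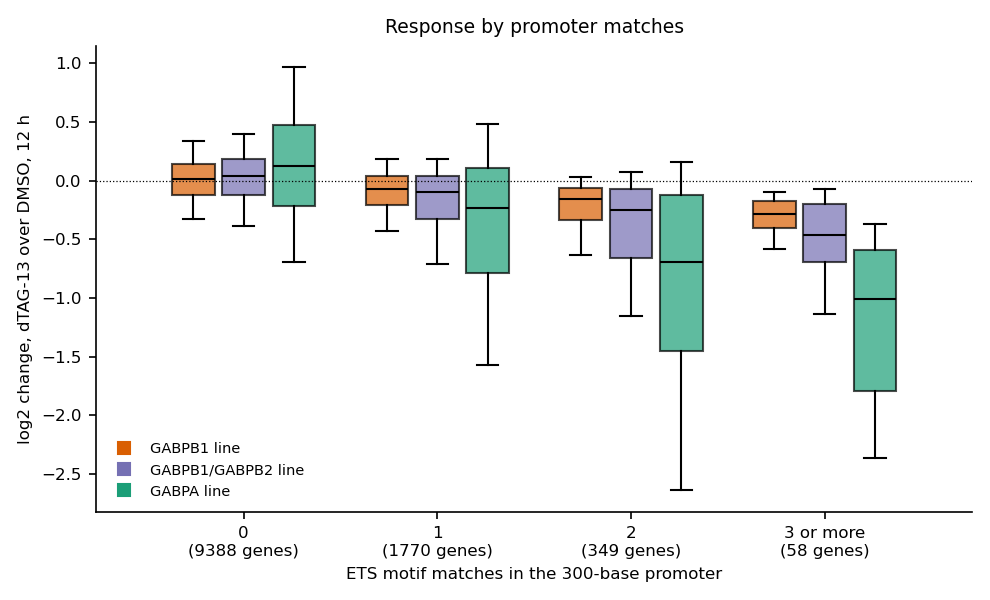
Log2 change at 12 h, dTAG-13 over DMSO, by the number of CCGGAAG matches in the 300-base promoter, for the GABPB1 line (orange), the GABPB1/GABPB2 line (purple) and the GABPA line (green); boxes span the quartiles with the median as a line, and whiskers the 10th to 90th percentile of genes. The medians fall with each further match in all 3 lines, to -0.28, -0.46 and -1.01 for 3 or more.

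Among nuclear genes for mitochondrial proteins, members of the ribosome, import and tRNA synthetase lists fell. Of 78 mitochondrial ribosomal protein genes, 7 fell (8.97%, against 5.46% of all genes) and 0 rose, and the median was -0.06. Mrpl27 had 11.5 and 12.1 CPM with dTAG-13 and 26 and 23.6 CPM with DMSO (log2 change -1.07, SE 0.101), Mrps21 fell by 0.92 (SE 0.122), Mrps34 by 0.75 (SE 0.0962) and Mrpl53 by 0.63 (SE 0.0962), and these calls held without each library in turn. Of 33 genes of mitochondrial protein import, 6 fell (18.2%) and 0 rose. Timm23, the channel of the inner membrane translocase, had 110 and 113 CPM with dTAG-13 and 156 and 156 CPM with DMSO (log2 change -0.49, SE 0.0592), and Pmpca, a subunit of the processing peptidase, fell by 0.38 (SE 0.057). Mitochondrial tRNA synthetases gave 3 falls (15.8%) and 1 rise among 19 genes, with Kars, which serves cytosol and mitochondria, at 258 and 258 CPM with dTAG-13 and 339 and 335 CPM with DMSO (log2 change -0.39, SE 0.0527). The single rise, Nars2 (log2 change 0.39), was lost without each library in turn, with adjusted p-values of up to 0.251 without the second dTAG-13 library.

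Other mitochondrial lists held few or no called members. Of 75 subunits of oxidative phosphorylation, 4 fell (5.33%, near the 5.46% of all genes), and the median was -0.02. The fallen members were Ndufs3, Uqcrh, Cox6b1 and Atp5j, by 0.37, 0.29, 0.32 and 0.30. Without 1 of the 4 libraries at most 1 of these calls was left. Of 23 genes of mitochondrial DNA expression, Elac2 and Fastkd5 fell (8.7%). Neither call held without any 1 library (edgeR adjusted p up to 0.451 for Fastkd5 without the second DMSO library). Tfam, which packages and transcribes mitochondrial DNA, had 65.5 and 71.4 CPM with dTAG-13 and 74.7 and 75.1 CPM with DMSO, and did not pass (log2 difference -0.13, SE 0.0658, edgeR adjusted p = 0.298). None of the 13 protein genes of the mitochondrial genome passed, and their median was -0.04. Cytosolic ribosomal proteins gave 0 of 86 calls with a median of 0.01; the fit of the 4 libraries alone called 6 risen and 2 fallen among them.

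Of 53 tRNA modification genes, 7 fell (13.2%, against 5.46% of all genes) and 0 rose. Beside Trmt112, Kti12, a partner of the Elongator complex, had 13.2 and 12.5 CPM with dTAG-13 and 22.9 and 24.1 CPM with DMSO (log2 change -0.87, SE 0.0885). Of 49 replication and G1/S genes, 7 fell (14.3%), 42 had a log2 change below 0, and the median was -0.13. Rfc2, a subunit of the clamp loader, had 69.7 and 75.4 CPM with dTAG-13 and 107 and 109 CPM with DMSO (log2 change -0.58, SE 0.0653). Tyms, thymidylate synthase, had 38.3 and 40.6 CPM with dTAG-13 and 57.0 and 60.0 CPM with DMSO (log2 change -0.57, SE 0.0692). Both held without each library in turn, and the list as a whole kept between 2 and 4 calls then. Of 38 proteasome genes 4 fell (10.5%), with Pomp, the assembly factor of the core particle, at 53.8 and 61.1 CPM with dTAG-13 and 84.0 and 90.2 CPM with DMSO (log2 change -0.60, SE 0.0779). Without any 1 of the 4 libraries, fewer proteasome genes and fewer tRNA modification genes fell. Of 20 genes of the RNA exosome and its cofactors 3 fell (15%), and of these Exosc3 held without each library in turn.

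Factors of transcription elongation were mostly not called. Of 32 genes of pausing and elongation 2 fell (6.25%, near the 5.46% of all genes): Ctr9, a scaffold of the PAF1 complex, had 63.3 and 64.6 CPM with dTAG-13 and 92.2 and 86.4 CPM with DMSO (log2 change -0.48, SE 0.0682), and Supt16, a subunit of the histone chaperone FACT, fell by 0.30 (SE 0.0599). The Supt16 call was lost without each library in turn, with adjusted p-values between 0.0681 and 0.0754. Of 17 subunits of Integrator, the complex that cleaves nascent RNA near promoters, 1 fell (5.88%, likewise near it), Nabp2 (log2 change -0.36, SE 0.084), and 14 had a log2 change below 0 with a median of -0.12. Nabp2 overlaps Ankrd52 on the other strand, and its call was lost without each library in turn (adjusted p up to 0.25 without the second DMSO library). Ints11, the catalytic subunit, had 74.9 and 77.1 CPM with dTAG-13 and 87.4 and 87.7 CPM with DMSO, and did not pass (log2 difference -0.20, SE 0.068, edgeR adjusted p = 0.0883).

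Pluripotency genes showed a small shift among the formative and primed markers. Of 13 tested, 4 fell (30.8%, against 5.46% of all genes), and all 13 had a log2 change below 0, with a median of -0.22. Zic2 had 41.0 and 41.0 CPM with dTAG-13 and 57.5 and 56.5 CPM with DMSO (log2 change -0.47, SE 0.0721), and held without each library in turn. Lef1, a Wnt effector, had 7.25 and 5.71 CPM with dTAG-13 and 11 and 10.8 CPM with DMSO (log2 change -0.75, SE 0.129), and missed the threshold without the second dTAG-13 library (adjusted p = 0.0607). The call of Zic5, with a log2 change of -0.30, was lost without each library in turn, with adjusted p-values of up to 0.396 without the second DMSO library. Of 28 naive and general pluripotency genes 2 fell (7.14%), Trim28 by 0.18 and Tdgf1 by 0.28, and neither held without any 1 library. Nanog had 627 and 619 CPM with dTAG-13 and 709 and 704 CPM with DMSO and did not pass (log2 difference -0.18, SE 0.0656, edgeR adjusted p = 0.123). Lefty1, a Nodal antagonist, was the pluripotency-associated gene among the largest falls, with 22.3 and 25.1 CPM with dTAG-13 and 50 and 52.7 CPM with DMSO (log2 change -1.11, SE 0.118).

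Genes that rose were fewer and moved less. Rnf157, an E3 ubiquitin ligase, had 20.4 and 19.2 CPM with dTAG-13 and 9.77 and 9.49 CPM with DMSO (log2 change 1.04, SE 0.121, edgeR adjusted p = 4.14e-05). Slc9a8, a sodium-proton exchanger of the Golgi and endosomes, had 61.7 and 63.3 CPM with dTAG-13 and 38 and 39.1 CPM with DMSO (log2 change 0.70, SE 0.0865). Chmp2a, a subunit of ESCRT-III, had 54.8 and 52.6 CPM with dTAG-13 and 36.0 and 34.2 CPM with DMSO (log2 change 0.61, SE 0.0766). Dap rose by 0.65 (SE 0.106), and these 4 and Gabpb1 held without each library in turn. The other 7 of the 12 largest rises, Cpe, Dixdc1, Commd3, Cgref1, Ano3, Bbs7 and Igdcc4, had log2 changes from 0.60 to 0.90 and each lost its call without at least 1 library, with the highest adjusted p at 0.201 for Bbs7 without the second DMSO library.

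Sterol and fatty acid synthesis was the list with the most risen members. Of 33 tested genes 11 rose (33.3%, against 1.28% of all genes), 0 fell, 31 had a log2 change above 0, and the median was 0.23. Msmo1, a sterol demethylase, had 56.3 and 57.9 CPM with dTAG-13 and 37.9 and 39.5 CPM with DMSO (log2 change 0.56, SE 0.0964). Fdps and Hsd17b7, further enzymes of the pathway, rose by 0.41 and 0.53. These rises are near the limit of the test: without 1 of the 4 libraries between 1 and 2 members stayed called, Msmo1 among them each time, while the fit of the 4 libraries alone called 28. In the GABPA and GABPB1/GABPB2 lines, 31 and 27 of the 33 rose, with medians of 0.66 and 0.49. Of all genes, 24.5% and 3.53% rose in these lines.

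Most members of the stress lists lay above 0, and most were not called. Of 40 p53 targets 7 rose (17.5%, against 1.28% of all genes) and 1 fell, with a median of 0.20. Only 4 of the 40 had a log2 change below 0. Ephx1, an epoxide hydrolase, had 35.2 and 35.9 CPM with dTAG-13 and 25.1 and 24.7 CPM with DMSO (log2 change 0.51, SE 0.0771). Ccnd2, a D-type cyclin, was the member that fell, with 1.70 and 1.87 CPM with dTAG-13 and 3.94 and 3.96 CPM with DMSO (log2 change -1.14, SE 0.215), and it missed the threshold without the first dTAG-13 library (adjusted p = 0.0636). Cdkn1a, the best known p53 target, had 137 and 136 CPM with dTAG-13 and 138 and 132 CPM with DMSO (log2 difference 0.02, SE 0.0737, edgeR adjusted p = 0.95). Without 1 library between 1 and 2 of the p53 targets rose, Ephx1 each time. In the GABPA line 37 of the 40 rose, with a median of 1.49, where 24.5% of all genes rose, and in the GABPB1/GABPB2 line 16, with a median of 0.21, where 3.53% did. Of 37 genes of the integrated stress response 5 rose (13.5%) and 1 fell, 7 had a log2 change below 0, and the median was 0.10. Chac1, a glutathione-degrading enzyme, had 11.4 and 10.9 CPM with dTAG-13 and 5.90 and 6.57 CPM with DMSO (log2 change 0.84, SE 0.177), and Trib3, a pseudokinase, 37.5 and 37.8 CPM with dTAG-13 and 28.1 and 28.6 CPM with DMSO (log2 change 0.41, SE 0.0805). Without 1 library at most 1 of the 5 rises was left, and Chac1 then had adjusted p-values between 0.0504 and 0.0948. Atf4 and Asns, with log2 differences of 0.09 and 0.04, did not pass. Of the same 37 genes, 16 fell and 5 rose in the GABPA line, with a median of -0.23. In the GABPB1/GABPB2 line 11 fell and 1 rose, with a median of -0.19. Of all genes, 21.9% and 9.26% fell in these lines.

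**Figure D4:**
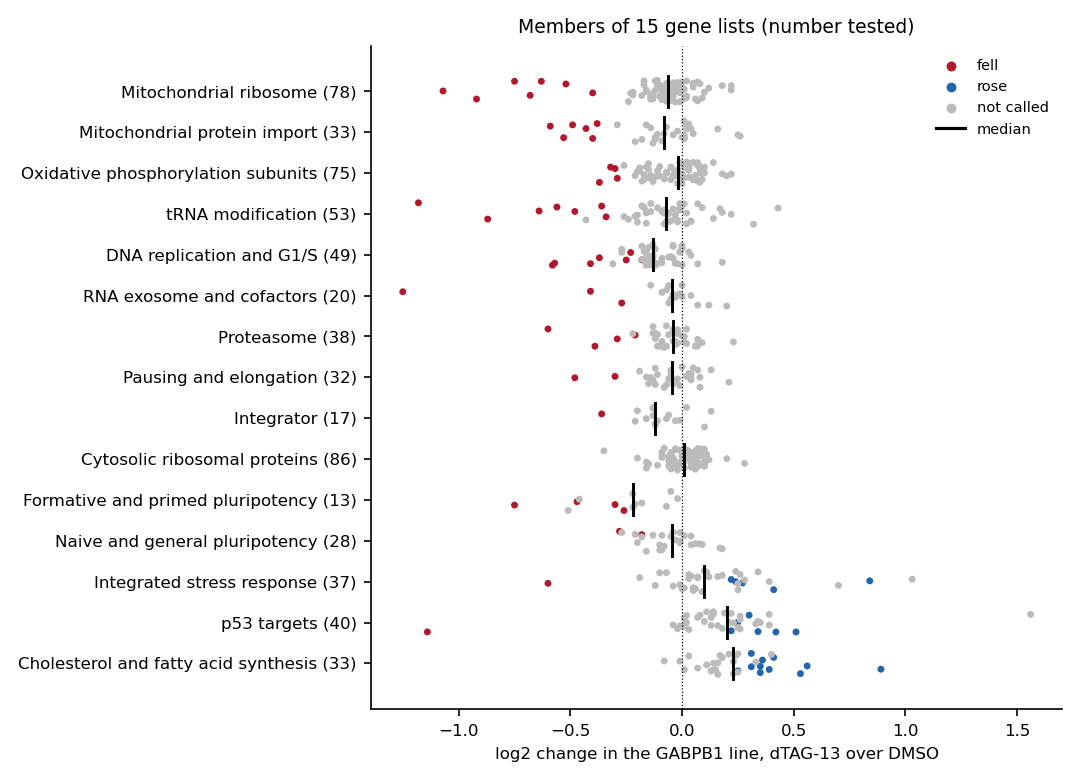
Log2 change in the GABPB1 line, dTAG-13 over DMSO, of each tested member of 15 gene lists (the number tested stands beside the name), with fallen members in red, risen members in blue, members not called in grey and the list's median as a black bar. Medians run from -0.22 for formative and primed pluripotency genes to 0.23 for cholesterol and fatty acid synthesis, and the largest falls lie in lists whose median is close to 0.

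Shares of members in the remaining lists were read against the 5.46% of all genes that fell and the 1.28% that rose. Of 43 genes of phosphoinositide and inositol phosphate metabolism 5 fell (11.6%), with Synj1, a synaptojanin phosphatase, at 15.4 and 15.1 CPM with dTAG-13 and 28.2 and 27 CPM with DMSO (log2 change -0.86, SE 0.114), and Impa1, inositol monophosphatase, at -0.52 (SE 0.0827). Of 48 USP deubiquitinases 3 fell (6.25%, near the share of all genes) and 1 rose, and of these Usp11 held without each library in turn. Of 16 immunoproteasome and antigen supply genes Psmb10, Psme1 and Irf1 fell (18.8%), the last 2 by 0.28 and 0.26 and not without any 1 library. The 12 genes of the BBSome gave 1 rise, Bbs7, and 1 fall, Bbs4 (log2 change -0.48, lost without each library in turn, with adjusted p-values of up to 0.239 without the first DMSO library), and the 15 of the COMMD complex 1 rise, Commd3, with 7.71 and 8.89 CPM with dTAG-13 and 4.33 and 5.53 CPM with DMSO. Of 18 lineage markers tested, Tubb3 and Eomes fell by 0.36 and 0.53. The Eomes call was lost without each library in turn, with adjusted p-values of up to 0.201 without the first dTAG-13 library, and the Tubb3 call without the second DMSO or the second dTAG-13 library (adjusted p = 0.0641 and 0.0813). None of the 9 fibroblast and 11 2-cell-like markers tested passed.

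Most RNAs that fell without GABPB1 fell in the other lines too, where the median fall was larger. Of the 896 fallen genes, 797 (89.0%) fell in the GABPA line and 719 (80.2%) in the GABPB1/GABPB2 line, against 21.9% and 9.26% of all genes tested. In both lines 693 of them fell (77.3%) and in neither 73 (8.15%), against 8.45% and 77.3% of all genes tested. Read from the other side, genes fallen in the GABPB1 line made up 22.2% of the genes fallen in the GABPA line and 47.3% of those fallen in the GABPB1/GABPB2 line. The 3 lines have separate DMSO libraries, so no control is shared, but all calls come from 1 fit with a common estimate of each gene's spread. The fallen genes were also more strongly expressed, with a median log2 CPM of 4.82 against 3.81 for all genes tested. The part of both in the overlap was not tested. The median log2 change of the 896 genes was -0.48 in the GABPB1 line, -0.64 in the GABPB1/GABPB2 line and -1.23 in the GABPA line. The change was larger in size for 767 of them in the GABPA line and for 634 in the GABPB1/GABPB2 line. Of all 16396 genes tested, it was larger for 12925 and 9734 in these lines. In the GABPB1/GABPB2 line the difference passed the test, with a smaller GABPB1 fall, for 13.5% of the 896. When genes were grouped by their fall in the GABPA line alone, the GABPB1 line showed a similar fraction throughout. Genes fallen there by 0 to 1 (2311 genes), 1 to 2 (869), 2 to 3 (280) and over 3 (131) on the log2 scale had median changes of -0.12, -0.31, -0.50 and -0.77 in the GABPB1 line, and the median of the ratio of the log2 changes was 23.4%, 22.8%, 20.9% and 20.6%. In the GABPB1/GABPB2 line the same ratio was 32.2%, 38%, 41.6% and 45.3%.

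The difference between lines was tested gene by gene. The response of the GABPB1 line minus that of the GABPA line was higher for 2174 genes (13.3%) and lower for 2046 (12.5%), and among the 896 fallen genes it was higher, that is, the fall was smaller, for 591, and lower for 45. Exoc3 had a difference of 5.17 (edgeR adjusted p = 1.52e-11), with a log2 change of -0.66 in the GABPB1 line and -5.83 in the GABPA line. Ercc3, a helicase of TFIIH, changed by -0.33 in the GABPB1 line and -4.26 in the GABPA line, a difference of 3.93. Wdr3 and Ebna1bp2, factors of ribosome biogenesis, changed by -0.59 and -0.57 in the GABPB1 line and by -3.95 and -3.59 in the GABPA line. Cops7a, a subunit of the COP9 signalosome, had 59.5 and 61.1 CPM with dTAG-13 and 119 and 123 CPM with DMSO in the GABPB1 line (log2 change -1.01, SE 0.0652), and a difference of 2.75. The 6 genes named for a lower response were Btg2, Ddit4, Zfp365, Plk2, Mcam and Txnip. Btg2, Zfp365 and Plk2 changed by 0.34, 0.42 and 0.34 in the GABPB1 line and by 2.29, 2.57 and 2.68 in the GABPA line, with differences between -1.95 and -2.34. Ddit4, a stress-induced inhibitor of mTORC1, was not called in the GABPB1 line (log2 difference 0.33) and changed by 3.20 in the GABPA line. Mcam and Txnip, with log2 differences of 0.12 and 0.15 that did not pass in the GABPB1 line, changed by 1.93 and 1.73 in the GABPA line, and the differences were -1.80 and -1.58.

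Against the GABPB1/GABPB2 line the response was higher for 152 genes (0.927%) and lower for 14 (0.0854%), and 121 of the 152 were among the 896 fallen genes. The DMSO group of that line had the widest spread between its 2 libraries, the chi-square over its degrees of freedom being 16.2, and without 1 library of either line the counts ran from 82 to 284 and from 3 to 49. Kti12 changed by -0.87 in the GABPB1 line and by -3.11 in the GABPB1/GABPB2 line, a difference of 2.24 (edgeR adjusted p = 1.06e-06). Usp11 changed by -1.65 in the GABPB1 line and -3.57 in the GABPB1/GABPB2 line, a difference of 1.92. Exosc3, Exoc3, Nek9 (a mitotic kinase) and Ppid (a cyclophilin) had differences of 1.87, 1.69, 1.41 and 1.15. Lypla2, at -2.89 in the GABPB1 line and -4.05 in the GABPB1/GABPB2 line, differed by 1.16 (edgeR adjusted p = 0.0243).

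Several genes known to respond to hypoxia fell in the GABPB1 line and had a lower response there than in the GABPB1/GABPB2 line. The 6 of the 14 genes with a lower response than in that line that had the smallest p and passed the naming rule were Lef1, Egln3, Ndrg1, Bnip3, Pfkfb3 and Igfbp4. The other 8 were Slc16a3, Egln1, Ankrd37, Ina and B3gnt7, with differences of -0.97, -0.64, -1.60, -0.54 and -0.45, and the predicted genes Gm13057, Gm12397 and Gm44775. Egln3, a HIF prolyl hydroxylase, had 15.6 and 15.6 CPM with dTAG-13 and 22.8 and 28 CPM with DMSO in the GABPB1 line (log2 change -0.71, SE 0.125), against 0.43 in the GABPB1/GABPB2 line and 0.17 in the GABPA line. Ndrg1 had 8.87 and 8.98 CPM with dTAG-13 and 16.4 and 19.2 CPM with DMSO (log2 change -1.0, SE 0.117), against 0.08 and -0.34 in those lines. Bnip3, a mitophagy receptor, had 18.2 and 18.9 CPM with dTAG-13 and 30.8 and 33.0 CPM with DMSO (log2 change -0.78, SE 0.132), against 0.21 and -0.06. Pfkfb3, an activator of glycolysis, had 8.74 and 7.86 CPM with dTAG-13 and 14.4 and 16.0 CPM with DMSO (log2 change -0.87, SE 0.133), against 0.15 and -0.09. On a list of 40 hypoxia-responsive symbols written after these values were seen, 13 of 39 gene IDs fell in the GABPB1 line and 0 rose. Of the 39, 32 were below 0, with a median of -0.22. The share that fell was 33.3%, against 5.46% of all genes. Because the list includes 7 of the genes with a lower response than in the GABPB1/GABPB2 line, this share is a description and no test. The list had 2 fallen and 2 risen members in the GABPB1/GABPB2 line, where 9.26% and 3.53% of all genes fell and rose, and 11 and 11 in the GABPA line, where 21.9% and 24.5% did. Of the 13, Slc16a3, a lactate exporter, had 67.8 and 66.7 CPM with dTAG-13 and 129 and 140 CPM with DMSO (log2 change -1.0, SE 0.147), and Slc2a1, a glucose transporter, 293 and 282 CPM with dTAG-13 and 415 and 426 CPM with DMSO (log2 change -0.55, SE 0.0649). Slc16a3 and Slc2a1 fell in the GABPA line too, with log2 changes of -1.18 and -0.53. Neither was called in the GABPB1/GABPB2 line (-0.03 and -0.20). Egln1, Pfkp and Ldha also fell in the GABPA line, whereas Bhlhe40 rose there. Vegfa, with 27 and 23.3 CPM with dTAG-13 and 22.6 and 23.1 CPM with DMSO, did not pass. Without 1 GABPB1-line library between 7 and 10 members fell. The differences for Egln3, Ndrg1, Bnip3 and Pfkfb3 missed the threshold without the second DMSO library of the GABPB1 line, with adjusted p-values of 0.0539, 0.0557, 0.0729 and 0.107. They were also lost without a dTAG-13 library of the GABPB1/GABPB2 line, the second for Egln3 (0.0551) and the first for Ndrg1, Bnip3 and Pfkfb3 (0.0783, 0.0863 and 0.137). Without the second dTAG-13 library of the GABPB1 line, Bnip3 and Pfkfb3 had adjusted p-values of 0.0516 and 0.113, and without the first Bnip3 had 0.0689, so that Bnip3 held in 4 and Pfkfb3 in 5 of the 8 fits without 1 library.

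Igfbp4, which binds insulin-like growth factors, had 5.15 and 4.99 CPM with dTAG-13 and 11.6 and 14.1 CPM with DMSO in the GABPB1 line (log2 change -1.34, SE 0.13). Its log2 change was -0.31 in the GABPA line, a difference of -1.03 (edgeR adjusted p = 0.00123). The difference from the GABPB1/GABPB2 line, -0.87 (edgeR adjusted p = 0.0324), was lost in 9 alternatives, with adjusted p-values of up to 0.263. Slc9a8 rose in the GABPB1 line and fell in the GABPA line (log2 change -0.53), a difference of 1.23 (edgeR adjusted p = 1.89e-06). Chac1 and Trib3, which rose in the GABPB1 line, had log2 changes of -0.33 (not called) and -0.31 in the GABPB1/GABPB2 line, with differences of 1.17 and 0.72 (edgeR adjusted p = 0.042 and 0.00456). Of the 210 risen genes 176 (83.8%) rose in the GABPA line and 105 (50%) in the GABPB1/GABPB2 line, against 24.5% and 3.53% of all genes.

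**Figure D5:**
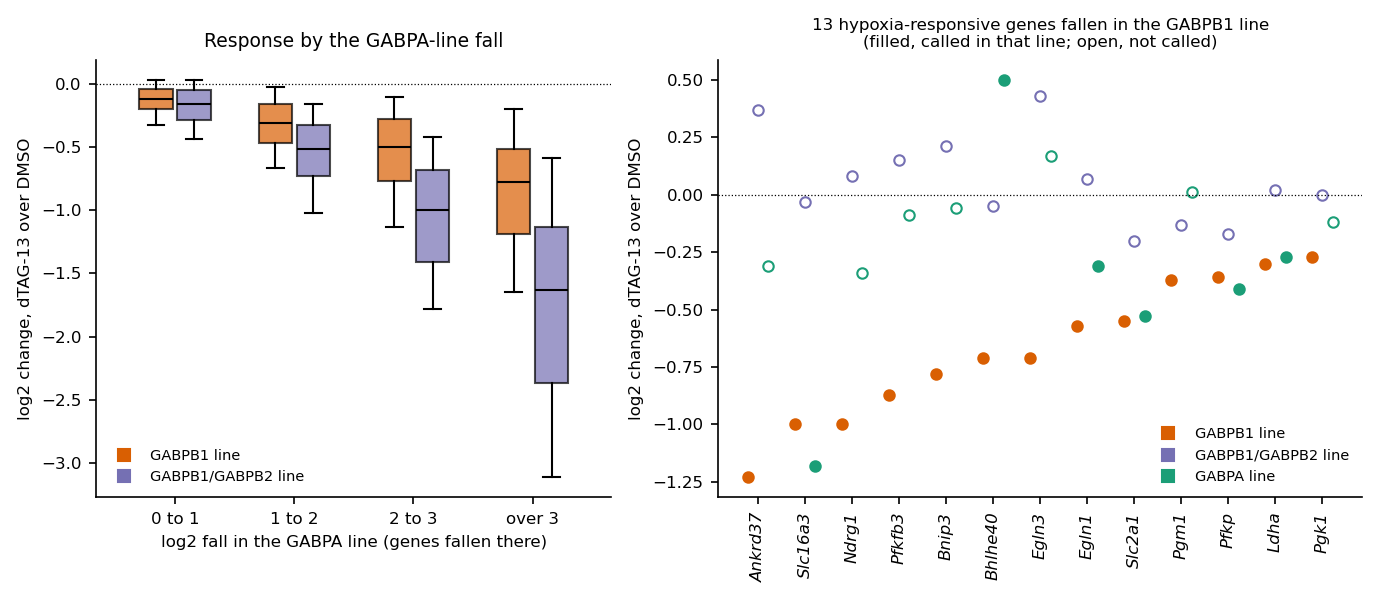
Left, log2 change in the GABPB1 line (orange) and the GABPB1/GABPB2 line (purple) for genes fallen in the GABPA line, grouped by the size of that fall, with boxes for the quartiles, lines for the medians and whiskers for the 10th to 90th percentile; the GABPB1-line medians run from -0.12 to -0.77. Right, log2 change in the 3 lines of the 13 hypoxia-responsive genes that fell in the GABPB1 line. Filled circles mark genes called in that line and open circles those not called. No purple circle is filled, among genes that were picked by their fall in the GABPB1 line.

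New RNA was measured by SLAM-seq in the GABPA line, and the fallen genes of the GABPB1 line were followed there as a separate readout in another line. In SLAM-seq, 4-thiouridine (500 µM) marks RNA made during labelling, so that its reads carry T-to-C conversions. Of 825 fallen genes tested in both assays, 113 (13.7%) had lower new RNA after 1 h of dTAG-13, 231 (28%) after 2 h, 269 (32.6%) after 4 h and 527 (63.9%) after 12 h. Among all 12609 genes tested in both assays the shares were 2.01%, 3.87%, 4.69% and 19.4%. The 2 h and 4 h groups share their DMSO libraries. Exosc3 fell in new RNA by 2.05, 2.19, 2.20 and 5.81 on the log2 scale over these times, and Kti12 by 2.47, 2.78, 3.66 and 5.46. Lypla2, the largest fall in the GABPB1 line, had new-RNA log2 changes of -0.49, -2.44, -2.09 and -3.14, of which the last passed (edgeR adjusted p = 0.00173). Igfbp4 had too few converted reads to be tested, and Lefty1 did not pass at any time, with log2 differences of 0.13, 0.03, -1.19 (SE 0.489) and -0.01 at 1, 2, 4 and 12 h. Without 1 library the counts ran from 37 to 74 at 1 h, 139 to 184 at 2 h, 162 to 217 at 4 h and 445 to 455 at 12 h.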

How the data were processed

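RNA-seq of polyadenylated RNA was analysed in 12 libraries and SLAM-seq in 14. Per the submitters' processing notes, tools included Trim Galore 0.6.7, cutadapt 3.5, STAR 2.7.11a and RSEM 1.3.1, with the build mm39; the sources used here do not state strand handling. The authors deposited RSEM expected counts (8.27% of them not whole, rounded here) and TPM per gene, and, per the file headers, SLAM-seq counts of reads with T-to-C conversions. Expected counts were tested with edgeR 4.0.16 in R 4.3.3 (TMM, filterByExpr with a minimum count of 10 and a minimum total of 15, quasi-likelihood test, Benjamini-Hochberg adjustment, adjusted p under 0.05), with all 12 libraries in 1 fit and 1 mean per group; the 14 SLAM-seq libraries (0.937 to 4.25 M converted reads) had a fit of their own. CPM use TMM library sizes. The SE is the log2 change over the square root of F. DESeq2 1.42.0 was an alternative.

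P-values measure only the spread between duplicates, 2 per group, which for RNA-seq was estimated for each gene over all 12 libraries of the fit. Those of the GABPB1 line therefore also carry the spread between duplicates of the other lines. The fit of the 4 GABPB1-line libraries alone called more genes, 1947 fallen and 1240 risen. Same-numbered libraries of the 2 treatments did not deviate together (correlations 0.0314, -0.0822 and 0.00565). On simulated data, in which far fewer genes changed than were called here, 7 of 15956 unchanged genes were called. Members, gene lists and tests were chosen with earlier results of these data known. For each list, up to 4 called members with the smallest p and 2 uncalled ones were named, and for each difference up to 6 genes per direction; Lyrm2 and the hypoxia-responsive genes were picked after their values were seen. Some genes that the rule named are not reported here. Promoters are from RefSeq (GRCm38.p6), for 21012 of 56953 gene IDs, matched by name, and no coordinate was moved between builds.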

Additional observations from a re-analysis of the deposited data

Results flagged for a closer look

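The results below differ between lines by a test of the difference itself (edgeR's quasi-likelihood test, Benjamini-Hochberg adjusted p under 0.05). The GABPB1 response was higher than the GABPA response for 2174 genes and lower for 2046, and higher than the GABPB1/GABPB2 response for 152 and lower for 14. Slc9a8 differed from the GABPA line by 1.23 on the log2 scale, with opposite signs in the lines, and Igfbp4 by -1.03.

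Against the GABPB1/GABPB2 line the log2 differences were 1.17 for Chac1 and 0.72 for Trib3. They were -1.16 for Lef1, -1.14 for Egln3, -1.08 for Ndrg1, -1.0 for Bnip3, -1.03 for Pfkfb3 and -0.87 for Igfbp4. Of these 6 lower differences, that of Lef1 stayed past the threshold without each of the 8 libraries of the 2 lines in turn.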

How the results depend on the processing

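The counts of calls moved with the libraries in the fit. The 4 GABPB1-line libraries alone gave 1947 fallen, 1240 risen and 58 risen over 2-fold, and the 8 of the GABPB1 and GABPA lines, added after seeing the data, 409 risen. Without a low-count filter 338 rose, 48 of them over 2-fold, and 252 and 66 genes had a higher and a lower response than in the GABPB1/GABPB2 line. At an average log2 CPM of at least 3, 32 fell and 1 rose over 2-fold. Without 1 library, 310 to 377 genes fell (65 to 82 over 2-fold) and 31 to 49 rose (5 to 14 over 2-fold). The difference from the GABPA line was then higher for 1809 to 2122 and lower for 1193 to 1848 genes, and that from the GABPB1/GABPB2 line for 82 to 284 and 3 to 49. New RNA of fallen genes was lower for 37 to 74 at 1 h, 139 to 184 at 2 h, 162 to 217 at 4 h and 445 to 455 at 12 h.

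Motif shares of fallen, risen and all genes were 26.8%, 4.85% and 8.44% for CCGGAAGT and 92.5%, 71.5% and 78.4% for GGAAG. The share was 43.2% for the fallen genes of the 4-library fit, 37.8% and 20% for genes fallen and risen over 2-fold, and 18.1% for all genes with 1 window. With the replicate number as a block, 864 genes fell and 201 rose; the numbers do not pair the libraries. DESeq2 gave 741 fallen and 207 risen genes. Of the values for single genes, 1378 kept their side of the threshold, 214 lost it and 1 gained it, and none changed sign. The causes were not tested. In the simulation, with 2 libraries per group, changes near 0.585 on the log2 scale were often missed.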

Other observations

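Fallen genes were spread over the chromosomes, with shares of tested genes between 4.02% on chromosome 10 and 6.42% on chromosome 14, 5.25% on the X chromosome and 0 of 15 genes on the mitochondrial genome, against 5.46% of all genes. Matches of CCGGAAG lay on the strand of the gene in 52.3% of 363 matches in fallen genes and in 51.0% of 2039 matches in all genes. Of 14 matches in risen genes, 5 lay between 75 bases before and 25 after the start.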
